A study of Homo sapiens with 8 samples.

Results

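SW620 cells are a human colorectal cancer line, long established. Transcript levels in SW620 cells transfected with a scrambled control sequence were compared with those in untreated SW620 cells, both kept for 24 h, with 2 arrays per group. These are 4 of the 8 single-colour Illumina bead arrays of a study of focal adhesion kinase (FAK) and HAS3, a synthase of the matrix polysaccharide hyaluronan; the other 4 arrays hold cells given 4 uM Y15, a FAK inhibitor, for 24 h and cells transfected with an siRNA against HAS3 for 24 h. The scrambled group was the study's control for the HAS3 siRNA. Its comparison with untreated cells describes what went with the transfection, the scrambled sequence and any difference in handling together. The members described are the 10856 genes, of 16922 named on the array, with a probe detected (detection p-value below 0.05) on 2 or more of the 8 arrays. All levels below are background-corrected, quantile-normalised log2 intensities of the brightest probe of a gene. A difference is scrambled minus untreated, and a gene passed at a limma adjusted p under 0.05 over all 10856 genes (Benjamini-Hochberg, two-sided). "Rose" and "fell" are used of such genes.

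All groups are the same cell line with no genetic change named in the labels. The sources used here do not give the transfection reagent, the amount or the letters of the scrambled sequence, and none of the 8 arrays is labelled as cells given reagent without a sequence. Whether the 2 arrays of a group stem from separate cultures is not stated; the spread behind every p-value is that between these arrays alone and could be technical. The labels and headers give no chip or day for any array: a difference in handling between the groups and the transfection cannot be told apart.

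As background, cells that lack amino acids, or that meet misfolded protein, double-stranded RNA or haem shortage, slow general translation through phosphorylation of eIF2 and make more of the transcription factor ATF4, which turns on amino acid synthesis enzymes, amino acid transporters and tRNA synthetases. Entry into DNA synthesis runs largely through E2F factors, which turn on the genes of the replication machinery, and passage through mitosis through a later wave of genes that includes the targets of FOXM1. Short double-stranded RNA delivered into cells is loaded into Argonaute proteins, and can also meet sensors of foreign RNA such as RIG-I and PKR that lead to an interferon response.

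Genes of amino acid supply fell and genes of DNA synthesis rose in scrambled cells, as given below, and promoters of members that passed are shown here for the sites that ATF4 and E2F are known to bind. ATF4 binds, with a C/EBP partner, a composite element searched as TGATGNAA on both strands of the RefSeq promoters (GRCh38.p14), each a window from 250 bases before to 50 after the gene's start. Capitals mark the match, which reads TGATGAAA on the strand of ASNS (chr7:97872359-97872658, minus strand) and lies on the opposite strand in CARS1 (chr11:3057374-3057673, minus strand). ASNS makes asparagine, and CARS1 charges the tRNA of cysteine.
ASNS: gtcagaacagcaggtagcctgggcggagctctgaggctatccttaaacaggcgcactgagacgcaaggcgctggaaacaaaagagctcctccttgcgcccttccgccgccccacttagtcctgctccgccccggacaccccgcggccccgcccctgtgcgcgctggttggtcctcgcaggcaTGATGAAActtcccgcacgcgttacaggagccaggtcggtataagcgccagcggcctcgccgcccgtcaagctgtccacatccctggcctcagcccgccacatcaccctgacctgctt
CARS1: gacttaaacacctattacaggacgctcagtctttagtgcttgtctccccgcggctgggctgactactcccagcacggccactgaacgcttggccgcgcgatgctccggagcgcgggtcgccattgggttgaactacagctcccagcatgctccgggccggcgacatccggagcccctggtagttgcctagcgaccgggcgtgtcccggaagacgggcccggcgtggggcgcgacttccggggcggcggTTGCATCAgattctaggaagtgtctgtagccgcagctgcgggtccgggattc
These letters stood in 3.67% of all 27305 promoters and in 1.8% of the 8959 promoters matched to tested genes. Of the 39 tested members of the ATF4 target list 32 had a promoter in the table and 6 of those held them (18.8%), 2 of 16 among the members that fell and 4 of 16 among the rest. Of the 19 tRNA synthetases tested, 6 of 16 with a promoter did, 4 of 8 among those that fell and 2 of 8 among the rest.

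E2F sites were searched as TTTGGCGC or TTTCGCGC on both strands, where a match of the first can overlap a match of the other on the opposite strand. The promoters of POLA1 (chrX:24693668-24693967, plus strand; match on the opposite strand) and EXO1 (chr1:241847954-241848253, plus strand) are shown with the match in capitals. POLA1 is the catalytic subunit of the polymerase that starts new DNA strands, and EXO1 is a 5'-to-3' exonuclease of mismatch repair.
POLA1: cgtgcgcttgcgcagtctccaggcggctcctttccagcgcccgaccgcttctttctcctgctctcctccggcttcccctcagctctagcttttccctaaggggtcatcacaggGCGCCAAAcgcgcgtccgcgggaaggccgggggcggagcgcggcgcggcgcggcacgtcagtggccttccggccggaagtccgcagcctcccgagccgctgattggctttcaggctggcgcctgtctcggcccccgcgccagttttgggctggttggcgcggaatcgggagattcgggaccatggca
EXO1: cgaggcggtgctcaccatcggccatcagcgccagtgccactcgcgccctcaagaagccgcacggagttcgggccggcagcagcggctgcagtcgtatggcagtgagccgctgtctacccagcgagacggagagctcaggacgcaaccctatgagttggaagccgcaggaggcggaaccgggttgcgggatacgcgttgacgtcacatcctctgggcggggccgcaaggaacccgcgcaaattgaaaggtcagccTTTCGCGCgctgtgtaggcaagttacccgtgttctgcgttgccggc
The letters stood in 1.18% of all promoters and 2.14% of those of tested genes. Among 42 replication genes with a promoter 13 held them (31.0%), of which 7 were among the 27 that passed and 6 among the 15 that did not. Among 42 mitosis genes with a promoter 3 did (7.14%). A match is a stretch of letters, not a measured binding site.

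Of the 10856 genes, 2118 passed (19.5%): 960 were higher (8.84%) and 1158 lower (10.7%) in scrambled cells. A change of at least 2-fold was passed by 85 higher genes (0.783%) and 199 lower genes (1.83%), and of at least 4-fold by 4 and 17. The 4 arrays had non-overlapping groups at 6824 genes (62.9%), which include all 2118 that passed. At an unadjusted p under 0.05 there were 3589 genes (33.1%). The median difference over all genes was 0.00132 on the log2 scale, with the 5th and 95th percentiles at -0.71 and 0.62. Of the genes that passed, 20 were detected on neither untreated array and both scrambled arrays, and 109 the other way round. Other probes of genes that passed numbered 532, and 79.9% of them differed in the same direction. Of the 532, 206 passed themselves, 96.6% of these in the same direction.

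Mean probe intensity was 524.7 and 489.1 on the untreated and 385.5 and 352.1 on the scrambled arrays, so the scrambled arrays were dimmer before normalisation. On each of the 8 arrays 12578 to 13916 of 24526 probes were detected. The count was 13872 and 13386 on the untreated arrays. It was 12578, the fewest of all 8, on the first scrambled array and 13409 on the second. What part these differences have in the results was not tested. With each array centred on its median in place of quantile normalisation, the median of all genes lay at -0.146, and 123 genes were higher and 932 lower, so that 11.7% in place of 45.3% of the calls were rises. For the lists with most rises the count under that scaling is given below. Leaving out the first scrambled array left 278 higher and 418 lower genes, the fewest of any array left out.

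**Figure D1:**
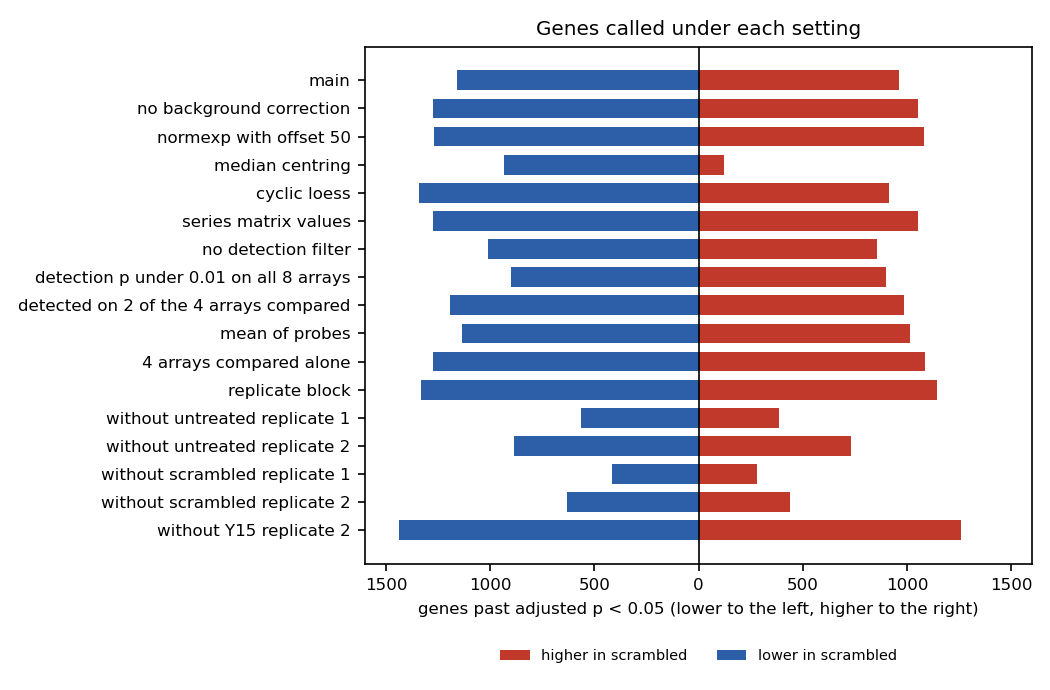
Genes past an adjusted p of 0.05 in scrambled against untreated cells under each processing setting (bars; lower genes to the left, higher genes to the right of 0). Median centring leaves 123 rises and 932 falls, against 960 and 1158 in the fit reported.

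The comparison of the other treated cells with untreated ones shares the untreated arrays, so levels in those cells are given side by side and not as further evidence. Genes of amino acid supply had the lowest median of the 34 lists. Of 39 tested genes listed as ATF4 targets, 22 fell and none rose (56.4%, against 19.5% of all genes), with a median difference of -0.74. Enzymes of serine and glycine synthesis were lower at each step measured. PHGDH, the first enzyme of serine synthesis, read 12.60 and 12.39 in untreated and 9.98 and 10.53 in scrambled cells, a 4.72-fold fall (-2.24 ± 0.19, SE, n = 2 arrays per group; limma adjusted p = 2.52e-05). The scrambled arrays both lay far below the untreated ones, and the HAS3 siRNA arrays, at 9.82 and 9.56, lay lower still. PSAT1, the next enzyme, fell 1.81-fold, PSPH, the last, 2.16-fold, and SHMT2, which turns serine into glycine in mitochondria, 1.76-fold. Asparagine synthetase, ASNS, whose promoter is printed above, read 12.72 and 12.85 against 9.79 and 10.92 (5.39-fold lower, adjusted p = 0.000186). A second ASNS probe fell by 1.93 on the log2 scale.

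Genes of sulphur amino acids and arginine moved with them. CBS, which condenses serine with homocysteine, read 10.74 and 10.60 in untreated, 8.14 and 8.58 in scrambled and 7.04 and 7.02 in HAS3 siRNA cells (4.95-fold lower in scrambled, adjusted p = 7.87e-06). CTH, which acts after CBS, fell by 0.68 on the log2 scale. The largest fall of any gene was that of ASS1, which makes argininosuccinate on the way to arginine: 12.42 and 12.33 in untreated and 8.43 and 8.63 in scrambled cells, 14.4-fold lower (-3.85 ± 0.15, SE, n = 2; adjusted p = 7.82e-08). Its level was 9.01 and 8.78 with HAS3 siRNA and 10.35 and 10.49 with Y15, so all 6 treated or transfected arrays lay below the untreated pair. A second ASS1 probe fell by 3.5. Among transporters, SLC3A2, the shared heavy chain of amino acid exchangers, fell 2.20-fold, SLC7A5, its partner for large neutral amino acids, 1.52-fold, and the glycine transporter SLC6A9 1.95-fold.

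Regulators in the same list were mixed. TRIB3, a pseudokinase that restrains ATF4, fell 3.48-fold from 11.97 and 11.79 to 9.52 and 10.64, and EIF4EBP1, an inhibitor of cap-dependent translation, 3.22-fold from 9.54 and 8.74 to 7.21 and 7.69. CEBPB, a partner of ATF4, fell 2.09-fold. ATF4 itself had a difference of -0.30 (adjusted p = 0.16), DDIT3, also called CHOP, 0.35 (adjusted p = 0.341), ATF3 0.55 (adjusted p = 0.167) and the glutathione-degrading CHAC1 0.19 (adjusted p = 0.64). None of these 4 passed.

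The scrambled arrays differed from each other at these genes more than elsewhere, which was noticed after their values were seen. Between them 14 of all genes differed by more than 1 on the log2 scale, each higher on the second array, and 12 of the 14 were in the ATF4 list. INHBE, an inhibin subunit, read 7.03 and 8.86 (untreated 9.86 and 10.07), DDIT4, an inhibitor of mTORC1, 10.88 and 12.42 (untreated 12.22 and 12.09) and SESN2, a leucine sensor, 5.02 and 6.23 (untreated 6.59 and 6.29). Of the 39 genes 38 were higher on the second scrambled array, by a median of 0.583, against 0.0592 between the untreated arrays. The list's median below untreated was -1.03 on the first and -0.45 on the second scrambled array. Of its 22 falls, 9 were kept without the first scrambled array and 22 without the second, 12 without the first untreated array and 16 without the second; without the first scrambled array 2 members also passed as higher. PHGDH, ASNS, CBS, TRIB3 and EIF4EBP1 passed in each of these fits, whereas PSPH, PSAT1, SLC3A2, SLC6A9, SLC7A5 and CEBPB did not without the first scrambled or without the first untreated array, and CTH not without the first scrambled array; SLC7A5 and CEBPB were also lost without the second untreated array. SHMT2 and SLC7A5 did not pass with median centring.

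Aminoacyl-tRNA synthetases of the cytosol, which attach amino acids to their tRNAs, fell in 10 of 19 cases (52.6%) and rose in none, with a median of -0.52. SARS1, for serine, read 10.34 and 10.29 in untreated and 8.75 and 8.97 in scrambled cells (2.75-fold, adjusted p = 0.000205). WARS1, for tryptophan, read 10.71 and 10.72 against 9.36 and 9.53 (2.41-fold, adjusted p = 0.000366), and EPRS1, for glutamate and proline, 11.68 and 11.88 against 10.76 and 10.73 (2.05-fold, adjusted p = 0.00052). For these 3 the groups were far apart and the arrays of a group close together. CARS1, with its promoter above, fell 1.96-fold, IARS1, for isoleucine, 1.76-fold and LARS1, for leucine, 1.70-fold. TARS1, for threonine, differed by 0.08 and VARS1, for valine, by 0.01, with 95% intervals of -0.22 to 0.39 and -0.28 to 0.30. Of the 10 falls 6 were kept whichever of the 4 arrays was left out, and 8 with median centring.

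**Figure D2:**
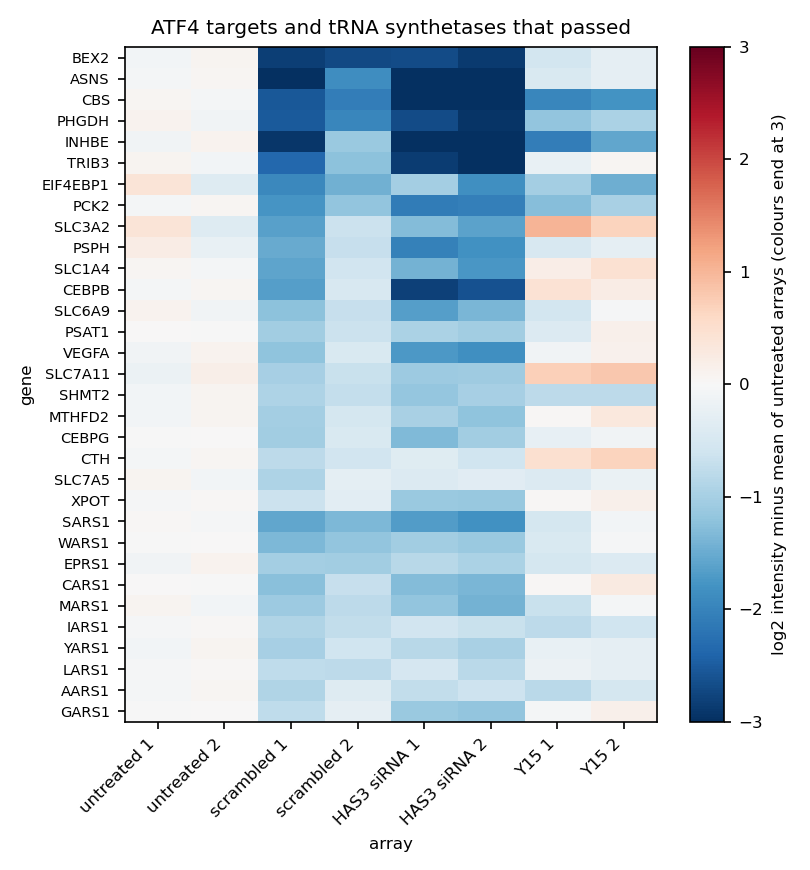
Log2 intensity minus the mean of the untreated arrays (colour, blue lower and red higher) for the 22 ATF4 targets and 10 cytosolic tRNA synthetases that passed (rows), on each of the 8 arrays (columns). The first scrambled array is bluer than the second at most of the ATF4 targets, where the median is -1.03 and -0.45 over all 39 tested.

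Genes of DNA synthesis and the entry to S phase rose in 29 of 48 cases (62.5% passed in either direction), with a median of 0.56, and 1 fell. RRM2, the regulated subunit of ribonucleotide reductase, which makes deoxynucleotides, read 8.68 and 8.51 in untreated and 10.41 and 10.18 in scrambled cells, 3.25-fold higher (1.70 ± 0.14, SE, n = 2; adjusted p = 2.41e-05). GINS2, part of the replicative helicase, read 9.69 and 9.90 against 11.14 and 11.10 (2.50-fold, adjusted p = 0.00018) and MCM4, a subunit of the helicase ring, 10.58 and 10.41 against 11.66 and 11.47 (2.10-fold, adjusted p = 0.000423). The groups did not overlap, as in all genes that passed. The HAS3 siRNA arrays read 10.09 and 10.22 for RRM2 and 11.61 and 11.62 for MCM4, beside the scrambled pair. A second MCM4 probe rose by 1.29. TYMS, which makes thymidylate, rose 1.89-fold, PCNA, the polymerase clamp, 1.75-fold, EXO1 1.91-fold and POLA1 1.91-fold. MCM2, another subunit of the same ring, differed by 0.02 (adjusted p = 0.952), and E2F1 by 0.13 (adjusted p = 0.631). In bulk RNA a larger share of cells in S phase and more transcript in each such cell cannot be told apart.

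The fall in this list was CCND1, cyclin D1, which drives cells out of G1: 12.45 on both untreated arrays and 11.56 and 11.50 on the scrambled ones (1.89-fold lower, adjusted p = 0.000671). MYC, a growth-promoting transcription factor, fell 1.86-fold, from 11.93 and 11.80 to 10.98 and 10.95 (adjusted p = 0.00225). Of 37 genes of ribosome biogenesis and other MYC targets, MYC was the 1 that passed (2.7%), with a list median of -0.01. Both falls were kept in each alternative fit.

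Mitosis genes rose in 28 of 50 cases (56.0%) and fell in none, with a median of 0.52. SPC24, a kinetochore subunit, read 6.86 and 6.68 in untreated and 8.15 and 8.31 in scrambled cells (2.75-fold, adjusted p = 0.000169), and KIF11, the motor that separates spindle poles, 9.33 and 9.19 against 10.37 and 10.21 (2.03-fold, adjusted p = 0.000483). CDK1, the kinase that starts mitosis, rose 1.74-fold, CCNA2, cyclin A2, 1.81-fold and FOXM1, which turns on mitosis genes, 1.95-fold. MKI67, the Ki-67 gene, differed by 0.44 (adjusted p = 0.164), PLK1 by 0.28 (adjusted p = 0.295) and CCNB1, cyclin B1, by 0.33 (adjusted p = 0.319); CCNB1 read 9.11 and 9.42 in untreated and 9.99 and 9.20 in scrambled cells, so its groups overlapped. Histone genes rose in 6 of 19 cases (31.6%), 2 of them also with median centring, with a median of 0.26. H2BC7, undetected on both untreated arrays (4.62 and 4.77), read 5.85 and 5.94 in scrambled cells, at least 2.14-fold higher (adjusted p = 0.000831).

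The medians of both cell division lists were above 0 with each array left out, between 0.46 and 0.58 for replication and between 0.45 and 0.62 for mitosis, and with median centring they were 0.35 and 0.34. The calls were less steady. With median centring 6 replication genes and 2 mitosis genes rose, RRM2, GINS2, MCM4, TYMS, PCNA, SPC24 and KIF11 among them, and EXO1, POLA1, CDK1, CCNA2 and FOXM1 did not pass. Without the first scrambled array 13 and 11 rose, and FOXM1 did not pass.

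**Figure D3:**
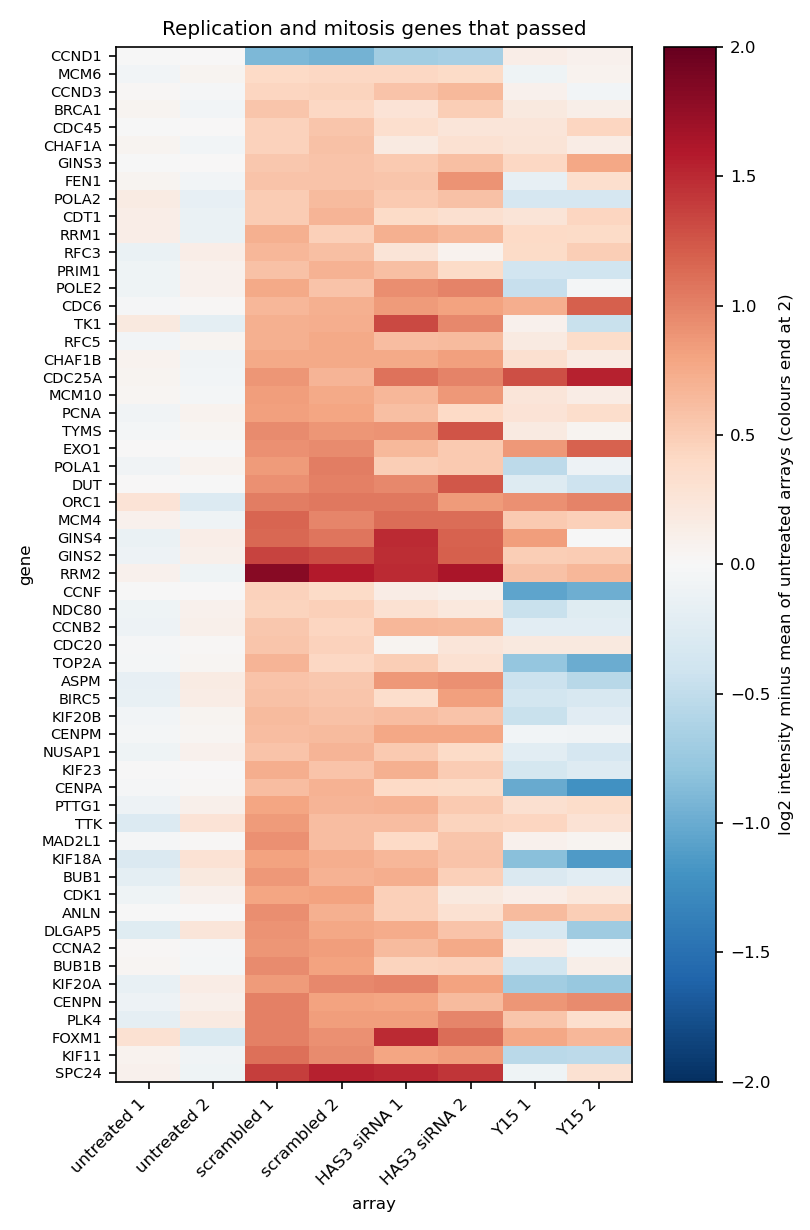
Log2 intensity minus the mean of the untreated arrays (colour, blue lower and red higher) for the 30 replication and 28 mitosis genes that passed (rows) on each of the 8 arrays (columns). CCND1 is the 1 row below untreated on the scrambled arrays.

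Cholesterol synthesis rose in 8 of 20 genes (40%) and fell in none, with a median of 0.38. SQLE, squalene epoxidase, read 9.02 on both untreated arrays, 9.89 and 9.73 in scrambled and 10.87 and 10.85 in HAS3 siRNA cells (1.73-fold higher in scrambled, adjusted p = 0.00184). INSIG1, which holds the sterol sensor SCAP in the endoplasmic reticulum and is itself a target of the pathway, read 5.26 and 5.07, then 6.04 and 5.93, then 6.21 and 6.46 in the same order (1.77-fold, adjusted p = 0.00673). For these genes the scrambled arrays lay between the untreated and the HAS3 siRNA arrays. IDI1, an isomerase of the isoprenoid steps, rose 1.76-fold, ACAT2, which joins acetyl-CoA units, 1.93-fold and HMGCS1, which makes HMG-CoA, 1.49-fold. SREBF2, the factor that drives the pathway, differed by 0.23 (adjusted p = 0.357). Of the 8 rises 1, that of ACAT2, was kept with median centring, where the list median was 0.12, and 2 whichever array was left out; INSIG1 did not pass without the first scrambled array (adjusted p = 0.0667), nor did IDI1 without the first scrambled or first untreated array, nor HMGCS1 without those or the second scrambled array.

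Lysosome and autophagy genes fell in 13 of 38 cases (36.8% passed in either direction) and rose in 1, with a median of -0.18. WIPI1, which binds the forming autophagosome, read 7.68 and 7.40 in untreated and 5.03 and 5.42 in scrambled cells (4.97-fold lower, adjusted p = 3.01e-05). GAA, the lysosomal enzyme that digests glycogen, read 9.65 and 9.17 against 8.07 and 8.18 (2.43-fold, adjusted p = 0.00119), and PSAP, the precursor of the saposins, 11.59 and 11.51 against 10.45 and 10.79 (1.90-fold, adjusted p = 0.00203). Their groups were well apart. GABARAPL1, an ATG8-family protein detected on 1 of the scrambled arrays, fell 2.05-fold and its relative MAP1LC3B 1.61-fold; the kinase ULK1, which starts autophagy, fell 1.87-fold. CTSL, the protease cathepsin L, read 6.26 and 6.59 in untreated, 5.49 and 5.62 in scrambled and 7.33 and 7.56 in HAS3 siRNA cells, the scrambled pair lowest and the siRNA pair highest. LAMP1, a membrane protein of lysosomes, differed by -0.12 (adjusted p = 0.568) and the autophagy receptor SQSTM1 by -0.20 (adjusted p = 0.421). Of the 13 falls 11 were kept with median centring. WIPI1, GAA, PSAP and GABARAPL1 were the 4 kept whichever array was left out; CTSL, MAP1LC3B and ULK1 did not pass without the first scrambled array, nor ULK1 without the first untreated array.

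Genes of the unfolded protein response fell in 8 of 23 cases (39.1% passed in either direction) and 1 rose, with a median of -0.19. DNAJB9, an endoplasmic reticulum co-chaperone, read 7.64 and 8.01 against 6.52 and 6.68 (2.34-fold lower, adjusted p = 0.00038). SEL1L and SYVN1, which work together to remove misfolded proteins, fell 1.78-fold and 1.44-fold. The main chaperone HSPA5 differed by -0.27 (adjusted p = 0.251). The 1 rise was CALR, the chaperone calreticulin (1.55-fold), which did not pass with median centring or without the first scrambled, the second scrambled or the second untreated array; SYVN1 did not pass without either untreated array or without the first scrambled array. Heat shock genes rose in 5 of 19 cases (26.3%), with a median of 0.10, led by HSPE1, a mitochondrial chaperonin (1.66-fold, adjusted p = 0.00864). None of the 5 was kept with median centring, without the first untreated or without the first scrambled array, and the inducible HSPA1A differed by -0.19 (adjusted p = 0.656).

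Genes that answer foreign RNA moved in both directions. Of 37 interferon-stimulated genes tested, 3 rose and 8 fell (29.7%, against 19.5% of all genes), with a median of -0.13. PLSCR1, a membrane scramblase induced by interferon, rose 2.43-fold, from 5.60 and 5.41 to 6.72 and 6.85 (adjusted p = 0.000169). ISG20, an RNA exonuclease, fell 2.70-fold, from 8.29 and 8.24 to 6.79 and 6.87 (adjusted p = 8.04e-05), and MX1, a dynamin-like antiviral GTPase, 1.91-fold, from 6.87 and 7.09 to 6.07 and 6.02. IFIT2, detected on 1 scrambled array, fell 1.80-fold, IFITM3, which blocks viral entry, 1.56-fold, MX2 1.44-fold and IFIT3 1.43-fold. Members of the same families and others did not pass: IFIT1 differed by 0.05 (95% interval -0.24 to 0.35), OAS1 by -0.02 (-0.40 to 0.37) and the RNA sensor RIGI by -0.01 (-0.35 to 0.32), and ISG15 by -0.39 (adjusted p = 0.0599). IFIT1 and RIGI were detected on 1 scrambled array. A further 15 listed genes, IFI27, IFI44L and RSAD2 among them, were on the array but not detected often enough to be tested. Of 17 nucleic acid sensing genes 3 rose (17.6%, near the 19.5% of all genes). Their median was 0.08, or -0.12 with median centring. The rises were OAS2 (1.48-fold), EIF2AK2, the gene of PKR (1.51-fold), and the adaptor MYD88 (1.40-fold). None of these 3 was kept with median centring or without the first scrambled array, and IFNB1 and TLR3 did not pass the detection filter. OAS2 and EIF2AK2 are also 2 of the 3 rises among interferon-stimulated genes. Of the 11 interferon-stimulated calls 7 were kept with median centring, 3 without the first scrambled array and 3 whichever array was left out. PLSCR1 and ISG20 passed with median centring and whichever of the 4 arrays was left out, and 1 call of this list was kept in every setting run. MX1 did not pass without either scrambled array or without the second untreated array.

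Of 16 genes of the RNA interference machinery 2 rose and 1 fell (18.8%, near the 19.5% of all genes). Their median was 0.16, or -0.05 with median centring. SND1, a nuclease of the silencing complex, fell 1.67-fold (11.12 and 11.20 against 10.41 and 10.44, adjusted p = 0.00293) in each fit. TNRC6B, the Argonaute partner, rose 1.65-fold and DGCR8, the partner of Drosha, which cuts primary miRNAs, 1.37-fold. Neither TNRC6B nor DGCR8 passed with median centring or without the first untreated or first scrambled array. AGO2, the slicing Argonaute, differed by 0.20 (adjusted p = 0.445) and DICER1 by 0.19 (adjusted p = 0.351).

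Signal-driven transcription was split. Of 31 immediate early genes 4 rose and 5 fell (29.0%), with a median of 0.13, or -0.06 with median centring. EGR1, a growth factor-induced transcription factor, read 10.32 and 10.34 against 11.28 and 11.44 (2.04-fold higher, adjusted p = 0.000418). MCL1, an anti-apoptotic protein, read 7.85 and 7.50 against 8.77 and 9.21 (2.49-fold, adjusted p = 0.000483), but a second MCL1 probe differed by -0.08 (adjusted p = 0.727). FOS fell 1.66-fold and FOSB 1.69-fold, JUN differed by 0.14 (adjusted p = 0.569), and the fall of FOS was lost whichever array was left out, that of FOSB with 3 of the 4 left out, all but the second scrambled array. Of 13 NF-kB targets and cytokines 4 rose and 4 fell (61.5%), with a median of 0.13. TNFAIP2, detected on 1 untreated array, read 4.90 and 4.55 against 5.67 and 5.48 (1.81-fold higher, adjusted p = 0.00275). NFKB2, a subunit of the factor, was detected on 1 scrambled array and read 6.57 and 5.97 against 4.91 and 5.50 (2.08-fold lower, adjusted p = 0.00758). Of the 8 calls in this list 2 were kept with median centring, 3 with any 1 array left out and 2 whichever it was; NFKB2 did not pass without the first untreated or first scrambled array.

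Matrix and adhesion genes fell more than they rose, with 9 falls and 1 rise among 37 (27.0%) and a median of -0.05. Of the 10 calls 6 were kept with median centring, 3 without the first scrambled array and 3 whichever array was left out. The falls included 4 laminin chains, which form the trimers of the basement membrane, and integrins, the receptors of matrix proteins. LAMB3 read 9.25 and 9.03 against 7.88 and 8.16 (2.17-fold lower, adjusted p = 0.00115), LAMB2 6.71 and 6.53 against 5.67 and 5.61 (1.98-fold, adjusted p = 0.00191) and ITGB4, the laminin-binding beta-4 integrin, 10.75 and 9.92 against 9.06 and 9.19 (2.30-fold, adjusted p = 0.0038). In each the groups did not overlap, as in all genes that passed. A second, dim LAMB3 probe differed by 0.07 (adjusted p = 0.793), and a second ITGB4 probe fell by 1.07. LAMA5 fell 1.68-fold and LAMB1 1.74-fold, neither without the first scrambled array; LAMA5 also did not pass without the first untreated array, nor LAMB1 without the second. PTK2, the FAK gene, read 10.31 and 10.58 against 10.44 and 10.53, a difference of 0.04 (95% interval -0.28 to 0.35, adjusted p = 0.879).

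The study's own target system differed between these controls. HAS3 read 9.32 and 9.50 in untreated, 10.49 and 10.16 in scrambled and 10.05 and 9.73 in HAS3 siRNA cells, so both transfected groups lay above the untreated pair and the library pair labelled HAS3 siRNA was not below untreated cells. Scrambled cells were 1.88-fold higher than untreated (0.91 ± 0.17, SE, n = 2; adjusted p = 0.00329), and a second, dimmer HAS3 probe rose by 1.30 (adjusted p = 0.000416). The HAS3 call was lost without the first scrambled array (adjusted p = 0.0517) and with median centring (adjusted p = 0.129). CD44, the main hyaluronan receptor, read 6.09 and 6.33 in untreated, 7.58 and 7.53 in scrambled, 7.18 and 7.41 in HAS3 siRNA and 7.27 and 7.53 in Y15 cells, the untreated pair lowest of all (2.54-fold higher in scrambled, adjusted p = 0.000215). A second, dim CD44 probe differed by 0.69 (adjusted p = 0.0694). GFPT1, the first enzyme of the hexosamine pathway that supplies hyaluronan's sugars, fell 1.76-fold (10.27 and 10.18 against 9.48 and 9.34, adjusted p = 0.00197). HAS2, another synthase, differed by -0.04 (adjusted p = 0.862). Of the 12 hyaluronan genes tested 2 rose and 2 fell (33.3%).

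Intestinal and Wnt genes were also split. Of 12 differentiation genes that were tested 5 rose and 1 fell (50%), with a median of 0.06, or -0.16 with median centring. CEACAM6, a surface adhesion glycoprotein, read 4.77 and 4.99 in untreated, 7.0 and 7.08 in scrambled, 5.41 and 5.50 in HAS3 siRNA and 6.60 and 6.75 in Y15 cells (4.47-fold higher in scrambled, adjusted p = 4.43e-06). DEFA5, a Paneth cell defensin, read 6.03 and 6.26 in untreated and 6.61 and 6.44 in HAS3 siRNA cells but was undetected in scrambled cells, at least 2.35-fold lower (adjusted p = 7.89e-05). Of 24 Wnt target and stem cell genes 5 rose and 7 fell (50%), with a median of -0.08. ALCAM, an adhesion molecule, read 7.35 and 7.64 in untreated, 8.56 and 8.50 in scrambled and 6.09 and 6.07 in HAS3 siRNA cells, and WLS, the transporter of newly made Wnt proteins, 7.17 and 7.23, 8.12 and 8.13, and 5.43 and 5.15. In both the untreated level lay between the 2 transfected groups. ALCAM was 2.04-fold higher in scrambled than untreated cells (adjusted p = 0.000698) and WLS 1.90-fold (adjusted p = 0.00119), the latter not with median centring. Whichever array was left out, 2 of the 6 intestinal and 6 of the 12 Wnt calls were kept. CLDN7, a tight junction claudin, fell 4.84-fold, from 7.91 and 7.85 to 5.47 and 5.74 (adjusted p = 2.41e-05).

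Among the 15 largest rises FGFBP1, a secreted carrier of fibroblast growth factors, led: 5.28 and 5.58 in untreated and 8.91 and 8.76 in scrambled cells, 10.6-fold higher (3.41 ± 0.15, SE, n = 2; adjusted p = 1.36e-07). It read 7.16 and 7.36 with HAS3 siRNA and 8.76 and 8.77 with Y15, so that the untreated pair was the lowest of all 4 groups. RASD1, a Ras-related GTPase induced by glucocorticoid, read 6.64 and 6.75 in untreated, 8.50 and 9.40 in scrambled and 5.22 and 5.07 in HAS3 siRNA cells (4.79-fold higher in scrambled, adjusted p = 0.000138). Other rises were likewise found in scrambled but not HAS3 siRNA arrays by level. GASK1B, a Golgi protein, read 5.43 and 5.70, 7.79 and 7.50, and 5.13 and 5.05 in untreated, scrambled and HAS3 siRNA cells (4.22-fold). KCNK10, a potassium channel, read 5.14 and 5.04, 6.73 and 6.76, and 4.91 and 5.08 (3.15-fold). ALDH1A1, which oxidises retinaldehyde, was detected on the scrambled arrays alone among the 8, at 6.38 and 6.12 (at least 2.73-fold). It thus entered the test through those arrays alone, which favours a rise.

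NRP1, a coreceptor of VEGF and semaphorins, was undetected in untreated cells and read 6.76 and 6.57 in scrambled and 5.04 and 5.19 in HAS3 siRNA cells (at least 3.65-fold higher in scrambled, adjusted p = 1.45e-05). In a further set of rises the HAS3 siRNA arrays read as high as the scrambled ones or higher. SFRP5, a secreted Wnt-binding protein, read 5.90 and 5.61 in untreated, 7.30 and 7.72 in scrambled and 8.93 and 9.01 in HAS3 siRNA cells (3.39-fold), THBS1, the matrix glycoprotein thrombospondin-1, 6.87 and 6.97, 8.72 and 8.57, and 8.94 and 8.64 (3.31-fold), and GNL3L, a nucleolar GTPase, 7.08 and 6.97, 8.71 and 8.54, and 9.30 and 8.85 (3.03-fold). The other rises were NMU (3.47-fold), CALB1 (3.39-fold), AKT2 (2.79-fold), and RRM2 and SPC24 given above.

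Among the 15 largest falls several were in both transfected groups by level. BEX2, the member of the ATF4 list with the largest fall, read 9.19 and 9.35 in untreated, 6.44 and 6.57 in scrambled and 6.58 and 6.41 in HAS3 siRNA cells (6.79-fold lower in scrambled, adjusted p = 9.19e-07). GRB10, an adaptor that restrains insulin receptor signalling, read 7.40 and 7.41, 5.07 and 4.66, and 4.83 and 5.02 in the same order (5.82-fold, detected on 1 scrambled array), and 7.67 and 8.0 with Y15. IL20RB, a subunit of interleukin-20 receptors, was undetected on both scrambled arrays (at least 4.77-fold lower), as was the mitochondrial protein COXFA4L2 (at least 3.68-fold). In these 4 genes the transfected arrays lay together, below the untreated ones.

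Other falls were of scrambled cells more than of HAS3 siRNA cells. CYTL1, a secreted cytokine-like protein, read 7.64 and 7.55 in untreated and 9.76 and 9.73 in HAS3 siRNA cells and was undetected in scrambled cells, at least 6.44-fold lower (adjusted p = 1.22e-07); the untreated level lay between the transfected groups. CPE, a prohormone-processing enzyme, read 7.91 and 8.18, 4.92 and 4.89, and 6.83 and 7.06 in untreated, scrambled and HAS3 siRNA cells (8.81-fold, detected on 1 scrambled array), and CST7, the protease inhibitor cystatin F, 10.28 and 10.02, 7.85 and 7.88, and 8.93 and 8.96 (4.86-fold). C5, a complement component (4.30-fold), and KIF21B, a kinesin (4.21-fold), complete the falls with the genes named above. KIF21B went the other way, with 4.98 and 4.97 in HAS3 siRNA cells below 5.15 and 5.42 in scrambled cells. Over all settings together, 4 of the 15 largest rises and 7 of the 15 largest falls were kept. The filter for detection on all 8 arrays leaves ALDH1A1 and CYTL1, among others, untested. Each of the 30 genes passed whichever of the 4 arrays was left out and with median centring.

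**Figure D4:**
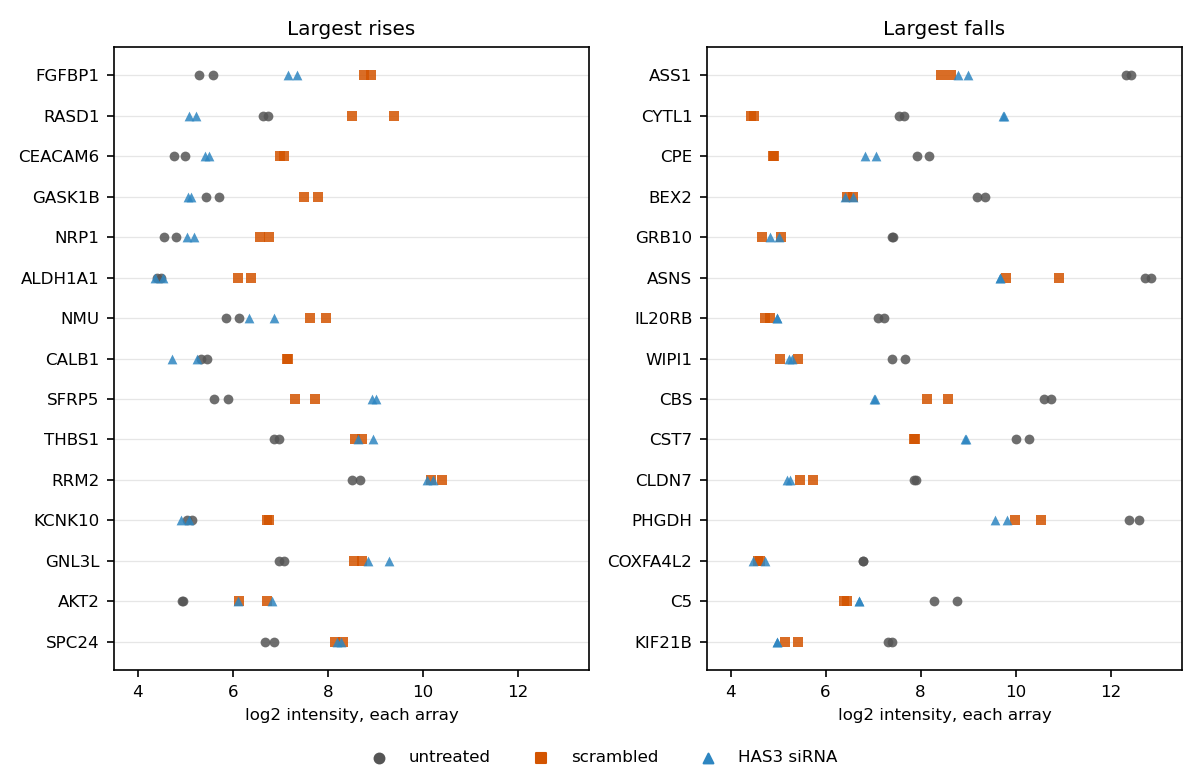
Log2 intensity on each array (x axis) of the 15 largest rises and 15 largest falls in scrambled against untreated cells, with the HAS3 siRNA arrays beside them; each point is 1 array. The untreated arrays lie between the transfected groups for RASD1, GASK1B and CALB1 among the rises and CYTL1 among the falls.

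In the remaining lists the shares that passed lay between 9.09% and 38.5%, against 19.5% of all genes, and the plot of the gene lists gives their medians. Fatty acid synthesis had 2 rises among 22 genes, ribosomal proteins 4 rises and 3 falls among 65, oxidative phosphorylation 5 and 1 among 49, the proteasome 5 and 1 among 27, metallothioneins 2 rises among 8 and tubulins 2 and 1 among 12. With median centring 1 call of the proteasome and 1 of the tubulins was kept and none of fatty acid synthesis, oxidative phosphorylation or the metallothioneins, and in these 5 lists no call was kept whichever array was left out. NRF2 targets had 1 rise and 3 falls among 21, p53 targets 2 and 2 among 21, apoptosis regulators 4 and 3 among 31 and ERK feedback genes 2 and 3 among 20. Hypoxia and glycolysis genes had 1 rise and 7 falls among 31, with the glucose transporter SLC2A1 lower by a difference of -0.66 (untreated mean 11.93, scrambled mean 11.27, adjusted p = 0.00695), a call lost without the first scrambled or first untreated array. EMT and TGF-beta genes had 1 and 3 among 23, YAP and TEAD targets 1 and 1 among 16, cell junctions 3 and 4 among 19, and genes of other cell types 2 and 3 among 13. CDKN1A, the p53-induced cell cycle inhibitor p21, was near the detection limit: 5.15 on both untreated arrays and undetected on the scrambled ones, at least 1.18-fold lower (adjusted p = 0.0173), a call lost whichever array was left out.

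**Figure D5:**
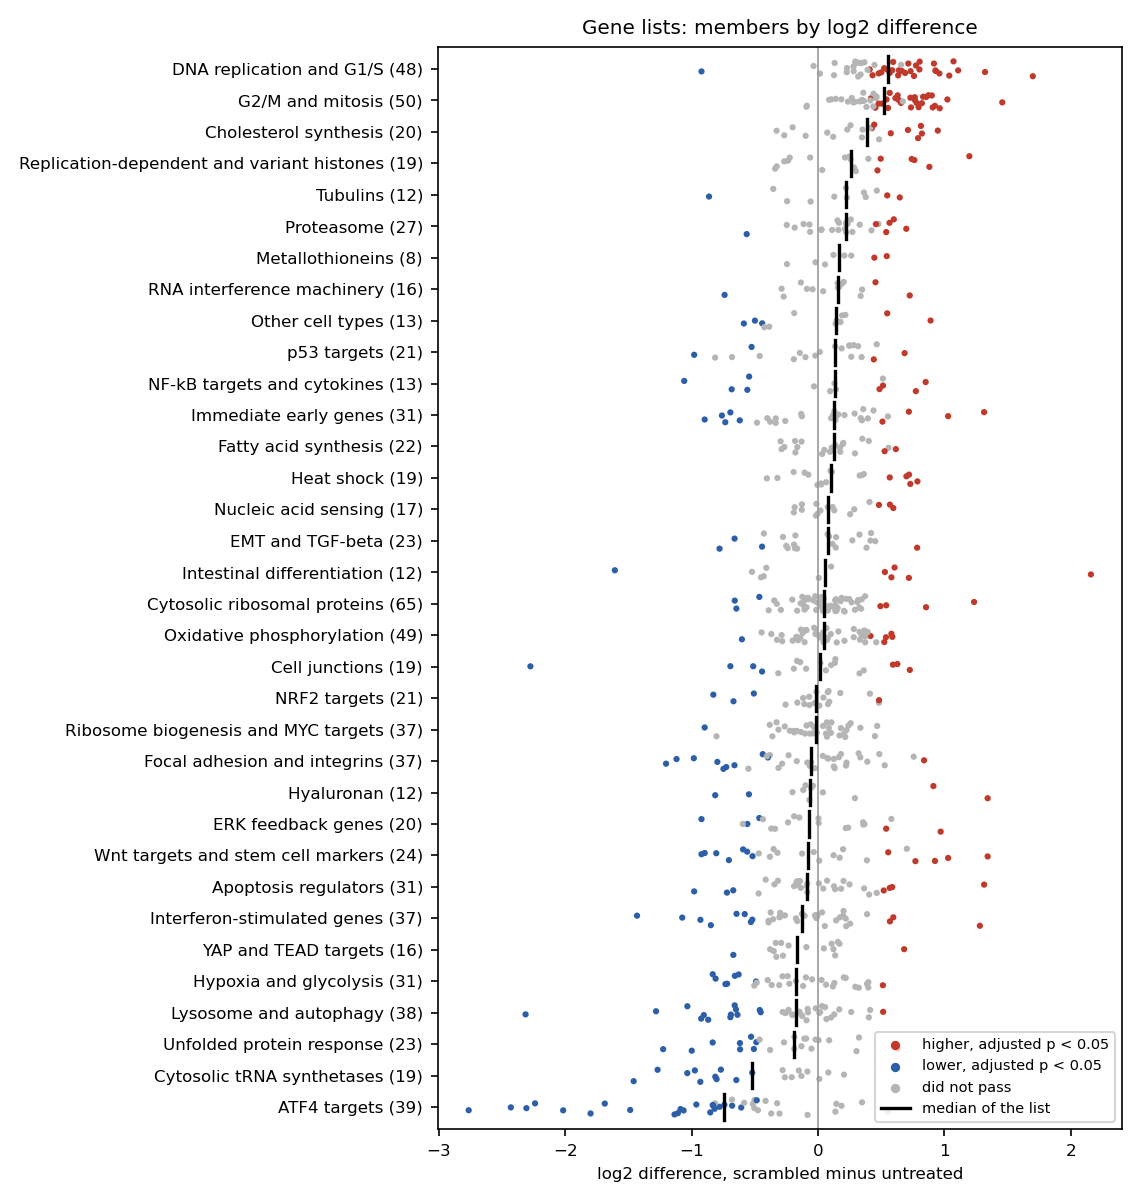
Difference of each tested member (points) of the 34 gene lists, scrambled minus untreated on the log2 scale, with the list median as a bar; red points rose, blue points fell and grey points did not pass. The lowest medians are those of ATF4 targets (-0.74) and tRNA synthetases (-0.52), and the highest those of replication (0.56) and mitosis (0.52).

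The arrays were checked against markers of the labelled line and of other cells. Of 14 colon epithelial markers 9, EPCAM, KRT8 and CDX2 among them, were detected on all 4 arrays compared and 3 (KRT20, CDX1 and LGALS4) on none, and their summed log2 level was 14.49 to 14.76 in untreated and 14.52 to 14.57 in scrambled cells. No fibroblast marker of 7 was detected on all 4 arrays, with COL1A2, COL3A1, DCN and THY1 on none. The fibroblast sum was 7.48 to 7.56 and 7.63 to 7.69. LUM, a matrix proteoglycan, rose (1.86-fold, detected on 1 untreated array). PDGFRB, a growth factor receptor detected on both untreated and neither scrambled array, fell (at least 1.21-fold, limma adjusted p = 0.0385). Endothelial and leukocyte markers were detected on all 4 arrays in 1 case each, PECAM1 and CD68, with PTPRC and CDH5 on none; the sums were 7.25 to 7.26 and 7.19 to 7.24 for endothelial and 7.57 and 7.50 to 7.68 for leukocyte markers. The leukocyte marker CD14 (difference -0.50, adjusted p = 0.027) and the hepatocyte marker ALB (difference -0.59, adjusted p = 0.0143) also fell, each detected on both untreated and neither scrambled array. Hepatocyte markers summed to 7.75 to 7.87 and 7.41 to 7.54, with APOA1 and TTR on none. Of the 4 neuron markers the 3 on the array, SNAP25, SYT1 and TUBB3, were detected on all 4 arrays and summed to 10.25 to 10.43 and 10.46 to 10.56.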

How the data were processed

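RNA of SW620 cells was measured on 8 Illumina bead arrays with 1 colour; the labels put 2 arrays in each of 4 groups. The deposited table holds probe intensity, not yet normalised, and a detection p-value per probe and array; both were exported with GenomeStudio, per the submitters' processing notes. The deposited series table holds log2 values, which on these files equal the quantile-normalised intensities. Intensities were background-corrected (limma 3.58.1 nec in R 4.3.3, offset 16, background from the detection p-values), quantile-normalised and log2-transformed. A probe was kept if detected (p-value below 0.05) on 2 or more of 8 arrays, which left 14631 of 24526. Of all probes 21834 had 1 symbol in GEO's platform annotation, which can be old (21813 updated through RefSeq's gene list), none had several and 2692 had none. A gene was represented by its brightest kept probe. All 8 arrays entered 1 limma fit (lmFit, eBayes) of 4 group means, with 4 residual degrees of freedom, and p-values were adjusted by Benjamini-Hochberg over 10856 genes.

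Where neither array of the dimmer group detected a probe, a fold is a bound ("at least"), set by the higher of that probe's level and the lowest detected level of each array. On data simulated for this comparison, with 10856 genes, 44% of genes changed by 1.5-fold and 100% of those changed by 2-, 3- and 4-fold were called. Of the unchanged genes 11 were called. The simulated noise was independent between genes and arrays, and few genes were changed. These shares therefore do not cover a shift that many genes of 1 array share, as in the ATF4 list on the scrambled arrays. Same-numbered arrays of the untreated and scrambled groups did not deviate together (r = -0.0715), so no pairing was used. For the untreated arrays r was 0.274 with Y15 and 0.218 with HAS3 siRNA, and for Y15 with HAS3 siRNA 0.131. For the scrambled arrays it was 0.0554 with Y15 and 0.0416 with HAS3 siRNA. These arrays share the fit, and whether replicate number marks a batch was not tested. Named genes were the 15 largest rises and 15 largest falls that passed, the study's targets and the leading or best-known members of each list. The members, the 34 lists (1129 entries) and the genes named were chosen with earlier results of these data known. The number of arrays limits the precision.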

Additional observations from a re-analysis of the deposited data

How the results depend on the processing

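Background correction, scaling, filter, probe rule and samples in the fit were changed in turn, each untreated and scrambled array was left out, and the fit without the dim second Y15 array was added after the data were seen. Rises and falls numbered 960 and 1158, with 85 and 199 at least 2-fold. Median centring gave 123 rises and 932 falls, with 42 and 444 at least 2-fold, and kept 996 of the 2118 calls. Without background correction, and equally in the series table, 43 and 106 were at least 2-fold; with an offset of 50, 30 and 74; with detection at p under 0.01 on all 8 arrays, which leaves 7163 genes, 48 and 98. Leaving out 1 untreated or scrambled array gave 278 to 729 rises and 418 to 886 falls, with 89 to 142 and 180 to 266 at least 2-fold; the lone array of a group is then assumed to vary like the other groups. Over these 4 fits 569 calls were kept. The replicate number as a block, which does not pair these arrays, gave 1143 and 1334, and leaving out the second Y15 array 1259 and 1440. A chip block was not run, as the headers give no chip. A set of 238 genes that passed, called named here, is wider than the genes the text names. Of these 238 genes, 126 kept the call with median centring, and none turned direction in a setting run. Of all 2118, 4 turned with the mean of a gene's probes (1015 rises, 1135 falls). With detection on all 8 arrays 2 of the 1479 still tested turned. The cause of these turns was not tested. Over all settings together 237 of the 2118 calls and 43 of the 238 named ones were kept, where genes that a filter left untested cannot be kept.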
